A study of Mus musculus with 11 samples.

Results

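The immediate early genes and other activity-induced genes of the cerebrum were examined as a group of 38 genes out of the 36666 listed in the gene count table. The members are listed by gene name, but the list was chosen by their CPM values in the contrast of Polg mutator with control mice, which were known when it was drawn up. The difference between the groups is therefore given for these genes as a description. Where a member is said to pass or miss an adjusted p in this contrast, that too is only a description. Its 6 AP-1 factors (Fos, Fosb, Fosl2, Jun, Junb, Maff), 4 EGR factors (Egr1 to Egr4), 7 other transcription factors (Npas4, Nr4a1, Nr4a2, Nr4a3, Crem, Nfil3, Klf10), 12 regulators of signalling or stress (Dusp1, Dusp4, Dusp5, Dusp6, Ier2, Ier5, Btg2, Gadd45b, Sik1, Tiparp, Trib1, Pim1) and 9 synaptic or secreted products (Arc, Bdnf, Homer1, Nptx2, Ptgs2, Cyr61, Inhba, Vgf, Scg2) all passed the filter on low counts, and the lowest count of a member in any mouse was 25, for Maff.

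Poly(A)+ RNA of the cerebrum was sequenced from 11 male C57/Bl6 mice aged 1 year. The 7 mutator mice are homozygous for a knock-in of the D257A form of Polg, the mitochondrial DNA polymerase, which lacks proofreading, so every cell of the body carries the mutant enzyme. Of the 4 controls, 3 are WT/WT (mice 205, 239 and 246) and 1 is WT/D257A (mouse 237), which carries 1 mutant allele. The mice were bred from heterozygous parents, the samples were single animals, and the mutators showed the premature ageing that is typical of the line, so the allele and the general state of the animals cannot be told apart.

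Immediate early genes are transcribed within minutes of a stimulus, with no need for newly made protein. In neurons, synaptic activity lets calcium in, and calcium-dependent kinases and the ERK pathway then act on the factors CREB and SRF, which are already bound at these genes. Some of the products are transcription factors that switch on later genes, others act at the synapse, and the mRNAs are short-lived, which is why Fos, Arc and Egr1 are widely used as markers of recent neuronal activity.

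The promoters of these genes are known for binding sites of CREB and SRF, and 27 of the 38 members had a window in the RefSeq promoter table (GRCm38.p6), 250 bases before to 50 after a transcription start. Both strands were searched for the cyclic AMP response element (CRE) TGACGTCA, its core TGACG, the CArG box bound by SRF, the AP-1 site TGANTCA and the EGR site GCGNGGGCG. A full CRE was found for 4 of the 27 members against 2.03% of the 27025 genes in the table, the core for 19 members against 23.0%, a CArG box for 2 members against 1.81%, an AP-1 site for 1 member (Bdnf) against 8.97% and an EGR site for 8 members against 6.27%. Every full CRE also counts as the core. A gene counts if any of its windows matches, and the members had 41 windows, against 32851 in the table. By window, the CRE was found in 4 of the 41 against 1.79%, and the core in 22 against 20.8%. The CArG box was found in 5 windows against 1.63%, the AP-1 site in 1 against 7.81% and the EGR site in 8 against 5.55%. These are matches of letters in a short window, not bound sites. For each of the 6 members with a full CRE or a CArG box, 1 window that holds such a site is printed. They stand in the order of their slope on Fos, a measure described further on. The window of Nr4a1 was added after its values were seen, because it holds the core 4 times. Capitals mark the CRE in Btg2, Dusp1, Scg2 and Maff, the CArG boxes in Egr2 and Dusp5, and the core, which reads CGTCA on the printed strand, in Nr4a1.
Egr2 (GRCm38.p6 chr10:67537316-67537615, plus strand): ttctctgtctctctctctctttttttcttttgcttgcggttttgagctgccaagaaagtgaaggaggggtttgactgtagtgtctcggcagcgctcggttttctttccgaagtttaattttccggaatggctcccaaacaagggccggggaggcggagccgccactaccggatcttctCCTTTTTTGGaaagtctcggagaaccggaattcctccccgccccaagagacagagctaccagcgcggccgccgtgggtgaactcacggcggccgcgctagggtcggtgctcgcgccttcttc
Btg2 (GRCm38.p6 chr1:134079106-134079405, minus strand): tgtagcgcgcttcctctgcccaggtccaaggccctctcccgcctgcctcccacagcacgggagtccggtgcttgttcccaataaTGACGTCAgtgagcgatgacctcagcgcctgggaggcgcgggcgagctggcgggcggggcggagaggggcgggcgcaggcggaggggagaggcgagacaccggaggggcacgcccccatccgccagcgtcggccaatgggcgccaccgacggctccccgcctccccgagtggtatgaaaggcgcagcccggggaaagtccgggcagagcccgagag
Dusp1 (GRCm38.p6 chr17:26508423-26508722, minus strand): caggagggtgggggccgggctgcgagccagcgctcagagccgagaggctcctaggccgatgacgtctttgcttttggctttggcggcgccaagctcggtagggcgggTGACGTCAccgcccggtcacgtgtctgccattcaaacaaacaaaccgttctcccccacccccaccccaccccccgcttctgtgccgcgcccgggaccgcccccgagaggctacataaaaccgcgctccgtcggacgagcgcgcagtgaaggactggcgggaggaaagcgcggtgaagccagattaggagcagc
Dusp5 (GRCm38.p6 chr19:53528895-53529194, plus strand): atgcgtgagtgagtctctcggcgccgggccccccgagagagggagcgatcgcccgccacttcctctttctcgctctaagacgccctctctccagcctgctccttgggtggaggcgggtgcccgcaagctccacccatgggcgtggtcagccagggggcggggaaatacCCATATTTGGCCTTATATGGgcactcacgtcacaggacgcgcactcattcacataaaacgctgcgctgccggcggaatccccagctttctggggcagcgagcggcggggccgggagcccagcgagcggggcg
Scg2 (GRCm38.p6 chr1:79439977-79440276, minus strand): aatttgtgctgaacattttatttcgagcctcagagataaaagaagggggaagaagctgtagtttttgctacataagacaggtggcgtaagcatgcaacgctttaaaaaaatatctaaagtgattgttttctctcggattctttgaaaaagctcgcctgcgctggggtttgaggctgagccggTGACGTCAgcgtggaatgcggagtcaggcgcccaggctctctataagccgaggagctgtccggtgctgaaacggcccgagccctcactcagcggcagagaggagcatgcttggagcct
Maff (GRCm38.p6 chr15:79347270-79347569, plus strand): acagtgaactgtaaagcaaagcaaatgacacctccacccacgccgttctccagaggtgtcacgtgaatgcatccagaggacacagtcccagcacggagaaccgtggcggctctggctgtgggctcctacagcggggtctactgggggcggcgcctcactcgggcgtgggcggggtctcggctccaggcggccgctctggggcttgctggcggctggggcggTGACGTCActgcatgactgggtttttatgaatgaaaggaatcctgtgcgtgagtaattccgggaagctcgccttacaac
Nr4a1 (GRCm38.p6 chr15:101266596-101266895, plus strand): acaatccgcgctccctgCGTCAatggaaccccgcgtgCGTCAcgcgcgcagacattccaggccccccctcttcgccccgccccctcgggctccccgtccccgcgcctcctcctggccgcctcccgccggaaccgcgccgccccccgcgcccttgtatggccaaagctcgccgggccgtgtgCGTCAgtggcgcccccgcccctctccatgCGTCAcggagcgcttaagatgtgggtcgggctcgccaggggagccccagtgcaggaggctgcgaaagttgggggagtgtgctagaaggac

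In these windows the CRE began at base -166 from the start in Btg2, -143 in Dusp1, -68 in Scg2 and -29 in Maff. The CArG boxes began at base -72 in Egr2 and at bases -82 and -72 in Dusp5, end to end. Egr2 has 5 windows in all. Those that start at bases 67537619, 67537620 and 67537680 overlap each other, lie outside the printed one and also hold a CArG box. In Nr4a1 the core lay at bases -233, -213, -69 and -40.

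Gene counts per mouse ranged from 28249345 to 121182250, with control 205 the deepest library. In mutator 248 the gene counts were 3.00 per aligned read listed by the authors, against 0.744 to 0.775 in the other mice. Markers of cell types and regions were also looked at. No markers of cerebellum or brainstem were listed, so the cerebral origin itself was not tested. All 7 listed neuron markers were present in every mouse and summed to 5964 to 6371 CPM (counts scaled to library size) in the controls and 5807 to 6205 CPM in the mutators. None of the listed markers of any cell type or region was at 0 in any mouse. By edgeR 1 of them, the striatal Adora2a, passed the test for a lower level in the mutators. Among all genes 1.24% passed in either direction, so nothing is read from this call. By fitted value, 6 of 6 hypothalamic markers were higher in the mutators, with a sum of 15.6 to 37.4 CPM in the controls and 37.1 to 79.2 CPM in the mutators. The same held for 5 of 5 blood markers, with 57.5 to 198 CPM and 89.7 to 256.9 CPM, and for 4 of 4 olfactory bulb markers, with 15.99 to 38.1 CPM and 21.3 to 82.5 CPM. Fitted values were lower for 6 of 6 microglial markers, with 202 to 255 CPM in the controls and 190.0 to 225 CPM in the mutators, and for 7 of 7 striatal markers, with 863 to 1059.6 CPM and 749 to 938 CPM. At an unadjusted p under 0.05 these 5 lists held 3, 0, 0, 4 and 2 genes, beside 2834 of all 17983 genes. DESeq2 called 2 hypothalamic and 2 endothelial markers higher, and 1 each of the striatal, astrocyte and oligodendrocyte markers lower. The share of all genes that DESeq2 called is not given here, so nothing is read from these counts. The part of the markers in the values given here was not tested. In bulk tissue, fewer cells of a type and less RNA per cell cannot be told apart.

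Scaled by exon length, the secretory granule proteins Scg2 and Vgf and the activity markers Egr1 and Arc were the most abundant members. Mean levels over the 11 mice, in CPM per kilobase of exon, were 112 for Scg2, 66.7 for Vgf, 64.7 for Egr1 and 55.7 for Arc. Fos was at 16.3, and the lowest were 1.24 for Maff and 1.15 for Pim1. Egr2, at 1.69, stood far below its relatives Egr1, Egr3 (31.04) and Egr4 (9.64) on this scale.

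A control and a mutator stood apart from the other mice in many members. In the plot of all members by mouse, high levels run down the column of control 205 and low levels down part of that of mutator 249. Control 205 had the highest level of all mice for 24 of the 38 members, whereas it had the highest level for 4.14% of all 17983 genes tested. Mutator 249 had the lowest level for 17 members, against 10.0% of all genes. Relative to the mean over all mice, the median member was 0.39 log2 units up in control 205 and 0.17 down in mutator 249, while the median of all genes was at 0.01 and 0.00.

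**Figure D1:**
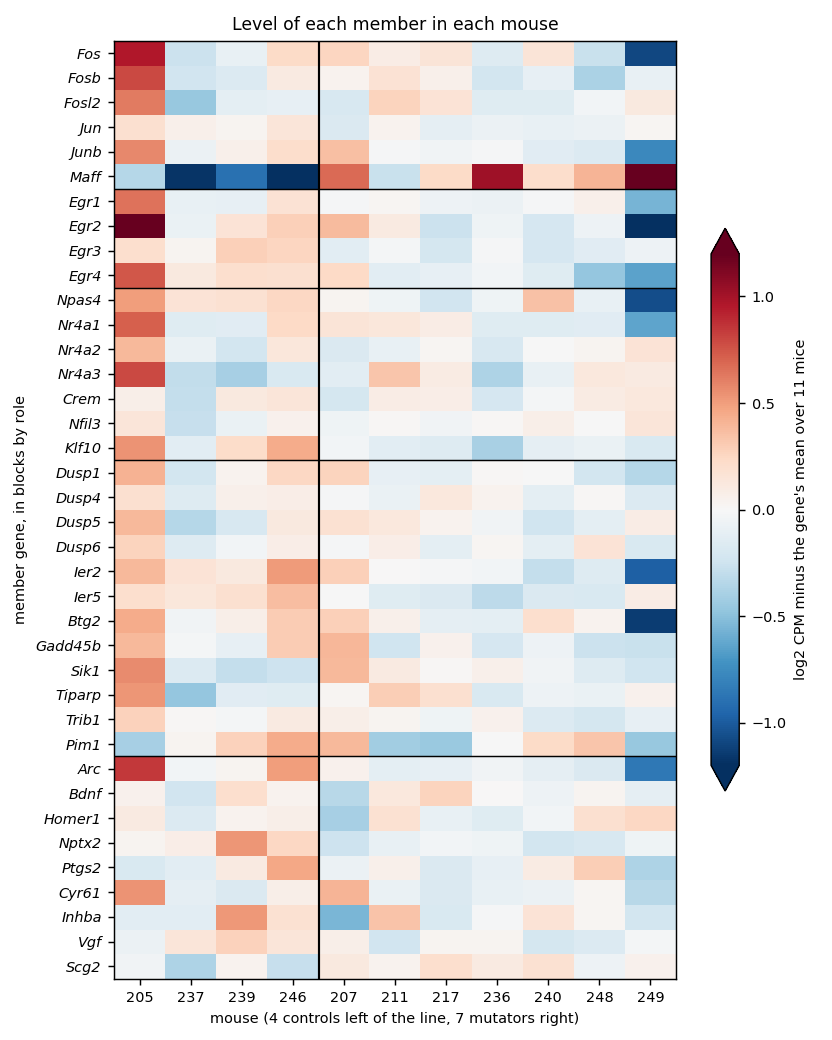
Level of each of the 38 members (rows, in blocks by role) in each of the 11 mice (columns), as log2 CPM minus the gene's mean over the mice, in colour. Control 205 was the highest mouse for 24 members and mutator 249 the lowest for 17, and Maff was highest in mutator 249.

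Within the groups, the spread of most members between mice was wider than that of the median gene. The biological coefficient of variation, which is the relative SD between mice that counting error does not account for, had a median of 17.6% over the 38 members and 7.74% over all genes tested, and 34 members lay above the median of all genes. At a mean of at least 10 CPM, where counting error is small, the medians were 15.9% for 32 members and 5.94% for 10309 genes. Egr2 (46.6%), Maff (35.3%) and Fos (32.7%) had the largest values. Jun, the partner of Fos in AP-1, was the steadiest member at 4.73%, followed by Egr3 at 6.02% and Nfil3, a repressor of the bZIP family, at 6.72%.

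Of the 38 members, 5 passed an adjusted p of 0.05 (edgeR) in the contrast of mutator with control mice, where 1.24% of all genes did, and 4 had groups that did not overlap, against 2.62% of all genes. These counts come from the contrast with which the list was chosen, and nothing is read from them. Maff was higher in the mutators, and Egr3, Ier5, Nptx2 and Klf10 were lower. The median log2 fold change of the members, mutator minus control, was -0.17, with 34 below 0, whereas the median of all genes was 0.00. Without control 205 the median was -0.08 and 25 members were below 0, and without both control 205 and mutator 249 it was -0.04.

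Fos encodes the prototype partner of Jun in the AP-1 dimer. Its level (gene at chr12:86814840-86818223, mm9) was 70.8, 30.5, 34.2 and 42.6 CPM in controls 205, 237, 239 and 246, and ranged from 17.1 to 43.5 CPM in the mutators, with a median of 38.7 CPM. The values of the controls are given in this order of mice throughout. Control 205 stood above all other mice, mutator 249 below them, and the remaining mice of both groups overlapped. The log2 fold change was -0.36 ± 0.29 (SE), and -0.03 without control 205.

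Fosb, whose long-lived splice form builds up under repeated stimulation, was at 26.2, 12.9, 13.5 and 16.3 CPM in the controls and from 11.6 to 16.97 CPM in the mutators, with a median of 14.2 CPM. Junb, another AP-1 partner, was at 90.7, 58.2, 63.5 and 70.5 CPM in the controls and from 35.7 to 78.6 CPM in the mutators, with a median of 59.3 CPM. Both were highest in control 205, and for both the groups overlapped. Their log2 fold changes were -0.27 ± 0.19 (SE) for Fosb and -0.29 ± 0.19 (SE) for Junb, and 0.02 and -0.15 without control 205. Fosl2 showed a log2 fold change of -0.05, and 0.23 without that mouse. Jun, which lay at 54.3 to 60.7 CPM in the controls and 47.3 to 54.6 CPM in the mutators, showed a log2 fold change of -0.17 ± 0.05 (SE), and its groups overlapped only at their edges. Its adjusted p was 0.100 by edgeR and 0.0438 by DESeq2.

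Maff encodes a small Maf protein, a bZIP factor without an activation domain. It was at 1.77, 0.99, 1.202 and 0.909 CPM in the controls and from 1.85 to 6.00 CPM in the mutators, with a median of 2.97 CPM. All mutators were above all controls, and the highest mouse was mutator 249, in which Fos was lowest. The log2 fold change was 1.43 ± 0.31 (SE). It no longer passed the threshold when control 237, 239 or 246 or mutator 207, 236, 240 or 248 was left out, although the log2 fold change stayed between 1.25 and 1.70 whichever mouse was left out.

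The EGR factors are zinc finger proteins. Egr1 was at 309, 185, 183 and 222 CPM in the controls and from 134 to 205 CPM in the mutators, with a median of 194 CPM. Egr2 was at 15.04, 4.74, 5.64 and 6.14 CPM in the controls and from 1.37 to 6.54 CPM in the mutators, with a median of 4.82 CPM. Egr4 was at 33.6, 21.6, 23.04 and 22.8 CPM in the controls and from 12.8 to 23.6 CPM in the mutators, with a median of 18.3 CPM. In all 3 genes control 205 was highest and mutator 249 lowest, and the groups overlapped. The log2 fold changes were -0.27 ± 0.16 (SE) for Egr1, -0.83 ± 0.40 (SE) for Egr2 and -0.50 ± 0.17 (SE) for Egr4, and -0.08, -0.27 and -0.32 without control 205.

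Egr3 (chr14:70477252-70479964, mm9) behaved otherwise. Its level was 52.1, 46.3, 55.1 and 54.1 CPM in controls 205, 237, 239 and 246, and ranged from 39.03 to 44.9 CPM in the mutators, with a median of 41.5 CPM. Every control was above every mutator, and neither control 205 nor mutator 249 was at an extreme. The log2 fold change was -0.31 ± 0.06 (SE), and -0.31 without control 205. Without control 246 the number of members past the threshold was 1, which was Egr3.

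**Figure D2:**
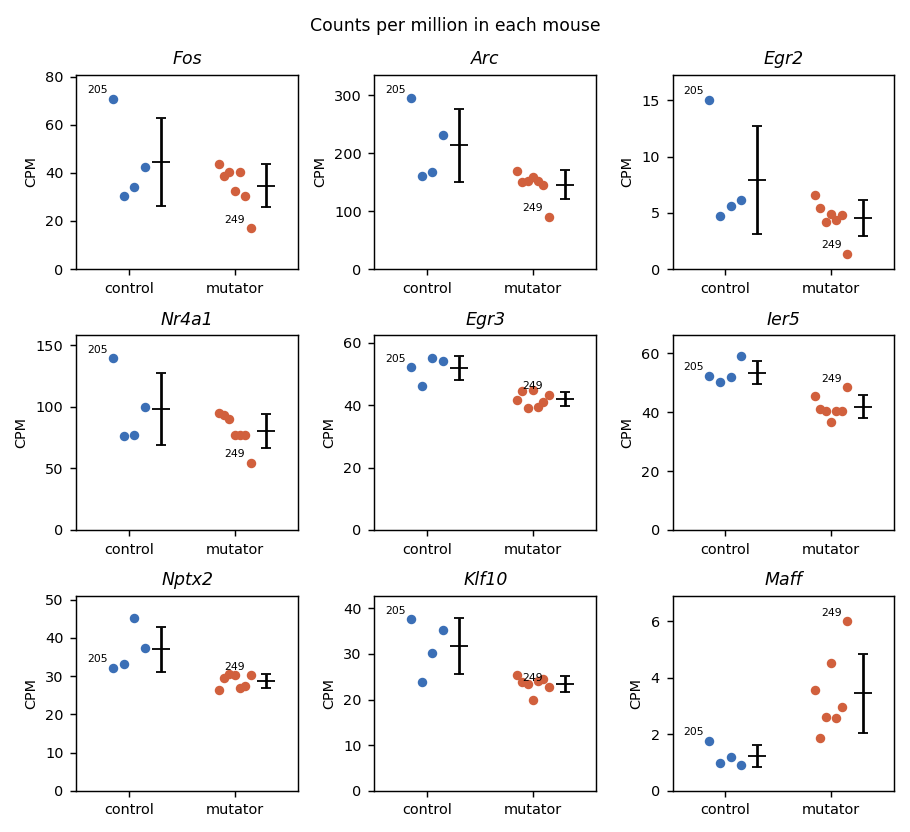
CPM of 9 members in each control (blue) and mutator mouse (orange), with the mean and SD of each group in black and mice 205 and 249 named. In the Fos, Arc, Egr2 and Nr4a1 panels mouse 205 is at the top and mouse 249 at the bottom with the rest overlapping, while in those of Egr3, Ier5, Nptx2 and Maff the groups do not overlap.

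Among the other factors, Npas4, a neuronal factor that calcium entry induces, was at 31.9, 25.2, 25.6 and 26.7 CPM in the controls and from 10.8 to 28.7 CPM in the mutators, with a median of 21.7 CPM. Nr4a1, an orphan nuclear receptor, was at 139.6, 76.6, 77.4 and 99.9 CPM in the controls and from 54.6 to 94.7 CPM in the mutators, with a median of 77.2 CPM. For both, control 205 was highest, mutator 249 lowest and the groups overlapped. The log2 fold changes were -0.38 ± 0.20 (SE) for Npas4 and -0.29 ± 0.20 (SE) for Nr4a1, and -0.30 and -0.07 without control 205. The related receptors Nr4a2 and Nr4a3 showed log2 fold changes of -0.11 and -0.06. Of these, Nr4a3 was at 51.9 CPM in control 205 and at 22.7 to 26.3 CPM in the other controls, and without control 205 its log2 fold change was 0.32.

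Klf10, a zinc finger factor first known as a target of TGF-beta, was at 37.7, 23.8, 30.2 and 35.3 CPM in the controls and from 19.9 to 25.4 CPM in the mutators, with a median of 23.8 CPM. The groups overlapped, since control 237 lay inside the range of the mutators. The log2 fold change was -0.44 ± 0.10 (SE), and -0.34 without control 205. Klf10 no longer passed the threshold when any mouse other than control 237 was left out. Crem, which encodes activators and repressors that bind the CRE, was at 13.5, 10.6, 13.9 and 14.2 CPM in the controls and from 11.1 to 14.05 CPM in the mutators, with a median of 13.6 CPM. The groups overlapped, with a log2 fold change of -0.02 ± 0.09 (SE). Nfil3 showed a log2 fold change of 0.05.

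The regulators of signalling include phosphatases that switch off the MAP kinases. Dusp1, which acts in the nucleus, was at 52.6, 33.8, 40.5 and 46.8 CPM in the controls and from 31.1 to 47.2 CPM in the mutators, with a median of 36.7 CPM. Dusp5, which is specific for ERK, was at 14.5, 8.796, 9.71 and 12.03 CPM in the controls and from 9.42 to 12.6 CPM in the mutators, with a median of 11.4 CPM. Both were highest in control 205, and the groups overlapped. Their log2 fold changes were -0.21 ± 0.13 (SE) and -0.02 ± 0.12 (SE), and those of Dusp4 and Dusp6 were -0.08 and -0.07.

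Btg2, an antiproliferative regulator of transcription, was at 37.99, 27.2, 29.3 and 34.6 CPM in the controls and from 12.7 to 34.1 CPM in the mutators, with a median of 28.7 CPM. Mutator 249 lay far below all other mice, and the groups overlapped, with a log2 fold change of -0.26 ± 0.23 (SE). Sik1, a kinase that acts on the CREB coactivators, was at 28.9, 17.4, 16.01 and 16.4 CPM in the controls and from 16.5 to 25.5 CPM in the mutators, with a median of 19.6 CPM. Tiparp, an ADP-ribosyltransferase, was at 28.9, 14.5, 18.2 and 18.1 CPM in the controls and from 17.6 to 24.5 CPM in the mutators, with a median of 20.3 CPM. Control 205 was highest for both, and the group means of both were nearly equal with log2 fold changes that lay well within their SE of 0.17 and 0.17. Without control 205 they were 0.26 and 0.28.

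Ier5, an immediate early gene that also responds to radiation, was at 52.4, 50.1, 52.1 and 58.9 CPM in the controls and from 36.7 to 48.5 CPM in the mutators, with a median of 40.5 CPM. Every control was above every mutator, and control 205 was not set apart. Its log2 fold change was -0.35 ± 0.07 (SE), and -0.36 without control 205, and Ier5 fell short of the threshold without control 246, at -0.30. The remaining regulators had overlapping groups and showed log2 fold changes of -0.42 for Ier2, -0.22 for Gadd45b, -0.15 for Trib1 and -0.09 for Pim1.

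Among the products that act at the synapse, Arc, which drives the removal of AMPA receptors from the synapse, was at 295, 159.8, 167 and 232 CPM in the controls and from 90.1 to 169.7 CPM in the mutators, with a median of 152 CPM. Control 205 was highest and mutator 249 lowest, and control 246 was also above all mutators. Arc had a log2 fold change of -0.55 ± 0.21 (SE), and -0.35 without control 205. Nptx2, a secreted pentraxin that gathers AMPA receptors, was at 32.2, 33.1, 45.3 and 37.3 CPM in the controls and from 26.4 to 30.6 CPM in the mutators, with a median of 29.4 CPM. The groups did not overlap, with controls 205 and 237 close above the mutators and control 239 highest. Nptx2 had a log2 fold change of -0.36 ± 0.08 (SE), and -0.43 without control 205, and fell short of the threshold without control 239 or 246 or mutator 240 or 248.

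The neurotrophin gene Bdnf was at 23.9, 19.6, 26.5 and 23.7 CPM in the controls and from 18.2 to 27.8 CPM in the mutators, with a median of 23.04 CPM. Homer1, a scaffold of the postsynaptic density, was at 139.9, 116, 134 and 136 CPM in the controls and from 98.4 to 154 CPM in the mutators, with a median of 127 CPM. The groups overlapped widely in both, and mutator 207 was lowest in both. The log2 fold changes were -0.03 ± 0.10 (SE) and -0.01 ± 0.11 (SE). Ptgs2, the inducible cyclooxygenase of excitatory neurons, was at 12.4, 12.9, 15.2 and 19.4 CPM in the controls and from 10.9 to 17.3 CPM in the mutators, with a median of 13.4 CPM, and its log2 fold change was -0.09 ± 0.13 (SE). Cyr61, a matrix protein, was at 16.2, 10.4, 9.89 and 11.7 CPM in the controls and from 8.88 to 14.9 CPM in the mutators, with a median of 10.6 CPM. Its log2 fold change was -0.14 ± 0.15 (SE), and again control 205 was highest. The groups overlapped in both.

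Of the genes of the secreted proteins Scg2, Vgf and Inhba, none passed an adjusted p of 0.05 by edgeR with all mice. Scg2, a granin, was at 269, 214, 286 and 228 CPM in the controls and from 265 to 318 CPM in the mutators, with a median of 299 CPM, and Vgf, the precursor of several neuropeptides, was at 161, 188, 205 and 187 CPM in the controls and from 144 to 178 CPM in the mutators, with a median of 167 CPM. The groups overlapped in both. The log2 fold changes were 0.25 ± 0.07 (SE) for Scg2 and -0.19 ± 0.07 (SE) for Vgf. The adjusted p of Scg2 was 0.0841 by edgeR and 0.0328 by DESeq2, and that of Vgf was 0.164 and 0.125. By edgeR, Scg2 passed without control 239 (adjusted p = 0.0365) and Vgf without control 205 (adjusted p = 0.0455). Neither passed by edgeR when any other single mouse was left out. Inhba, the activin subunit, showed a log2 fold change of -0.18.

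**Figure D3:**
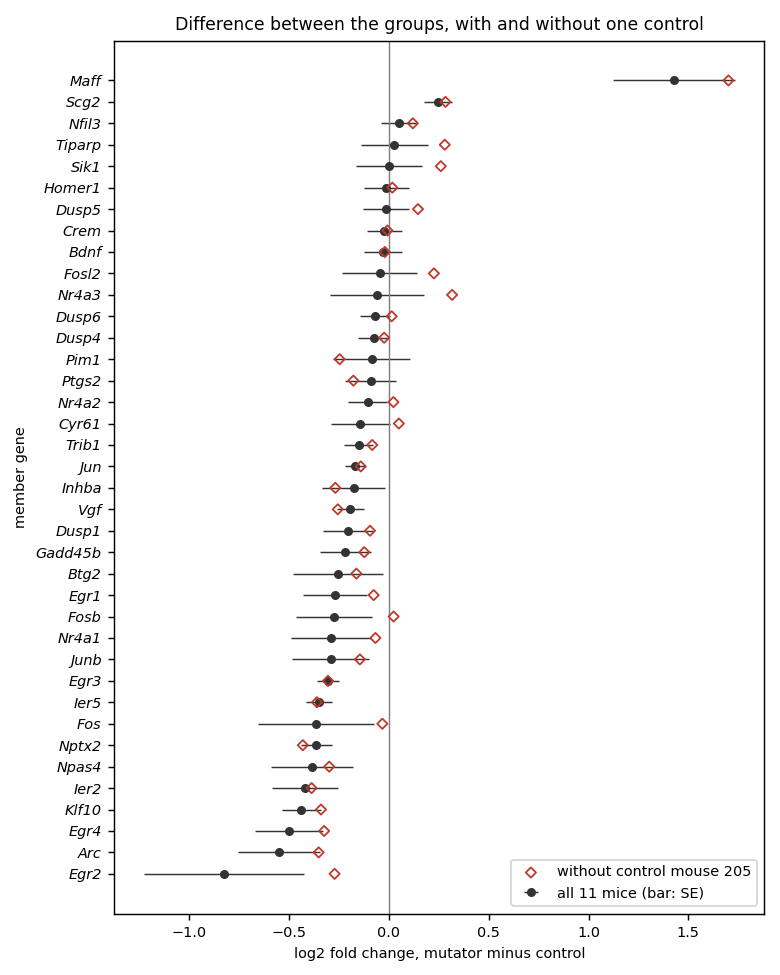
Log2 fold change of each member, mutator minus control, with all 11 mice (black, bar: SE) and without control 205 (red diamonds). For Egr3 and Ier5 the values nearly coincide, while for Egr2 the value went from -0.83 to -0.27 and for Fos from -0.36 to -0.03.

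Which mRNAs followed Fos from mouse to mouse within the groups was then asked with a fit of each gene on the log2 CPM of Fos, with the group as a term, so that the difference between the groups does not enter. The slope is the change in log2 level per log2 unit of Fos. Of the 37 members other than Fos, 6 rose with Fos at an adjusted p under 0.05 (edgeR's quasi-likelihood test, adjusted over all genes), whereas 0.0389% of all 17982 genes did, which is 7 genes. The slopes and adjusted p were 0.63 ± 0.06 (SE) and 4.22e-05 for Nr4a1, 0.67 ± 0.07 (SE) and 4.60e-05 for Arc, 1.34 ± 0.16 (SE) and 5.65e-04 for Egr2, 0.60 ± 0.07 (SE) and 6.42e-04 for Junb, 0.50 ± 0.07 (SE) and 0.00111 for Egr1, and 0.53 ± 0.08 (SE) and 0.00755 for Egr4. Egr2 alone of the 6 had a slope above 1.

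At an unadjusted p under 0.05 the fit named 19 of the 37 members and 6.67% of all genes, and 12 of the 50 genes with the lowest p were members. Btg2 (0.69 ± 0.13 (SE), adjusted p = 0.149 by edgeR), Npas4 (0.57 ± 0.14 (SE), adjusted p = 0.498), Sik1 (0.48 ± 0.10 (SE), adjusted p = 0.172) and Dusp1 (0.38 ± 0.07 (SE), adjusted p = 0.109) had positive slopes that missed the threshold.

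The members with groups that did not overlap had slopes near 0 or below. The slope was -0.01 ± 0.06 (SE) for Egr3, -0.07 ± 0.07 (SE) for Ier5, -0.13 ± 0.08 (SE) for Nptx2 and -0.30 ± 0.28 (SE) for Maff, and none passed the test. Klf10 had 0.23 ± 0.09 (SE) with an adjusted p of 0.656 by edgeR. Jun (0.00 ± 0.06 (SE)), Homer1 (-0.12 ± 0.12 (SE)) and Bdnf (0.07 ± 0.11 (SE)) did not pass either. Whether the slopes of these genes differ from those of the genes that followed Fos was not tested. Overlap was judged in the contrast with which the list was chosen, so nothing is read from this grouping. Egr3, Ier5 and Nptx2 also varied little within the groups (6.02%, 8.17% and 10.3%), which leaves little room for a slope.

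The calls in this fit changed when mouse 205 or 249, at the ends of the range of Fos, was left out. Without control 205, 4 members passed (Junb, Arc, Nr4a1, Btg2), beside 4 of all genes. Without mutator 249, 5 passed (Fosb, Egr2, Arc, Nr4a1, Tiparp), beside 5 of all genes, so that Arc and Nr4a1 passed in both settings. With both mice left out, a setting chosen after the data were seen, 0 of 37 members and 0 of all genes passed by edgeR. Of the members, 12 then had an unadjusted p under 0.05, against 3.81% of all genes. The median slope of the members was then 0.22, beside 0.23 in all mice. Slopes above 0 were found for 32 of the 37 members then and for 27 in all mice, where 51.6% of all genes had such a slope. That share was 50.5% without control 205 alone and 50.8% without mutator 249 alone. With both left out it is not given here. The slopes in these 9 mice were 0.63 for Nr4a1, 0.57 for Egr4, 0.56 for Junb, 0.54 for Arc, 0.48 for Egr2 and 0.16 for Egr1. The values of Egr2 and Egr1 were less than in all mice by over 1.5 times, those of the others were not. Markers of the olfactory bulb, over 4 genes, had a median slope on Fos of 0.97, and their sum was 38.1 CPM in control 205, the highest control, and 21.3 CPM in mutator 249, the lowest mutator. None of the 4 had an unadjusted p under 0.05 in that fit, and their part in the result was not tested.

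**Figure D4:**
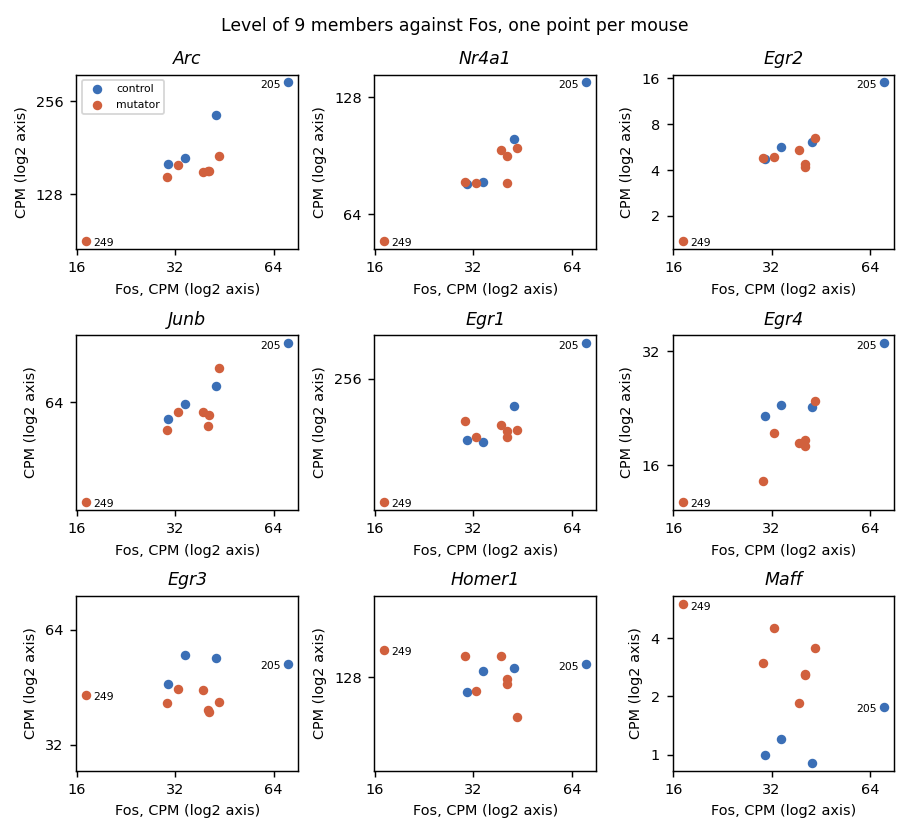
Level of 9 members against that of Fos, both in CPM on log2 axes, with 1 point per mouse (controls blue, mutators orange) and mice 205 and 249 named. The upper 6 genes, which passed the test on Fos, have mouse 205 at the top right and mouse 249 at the bottom left, and the lower 3 did not pass.

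Outside the list, 2 genes passed the fit on Fos. The non-coding RNA 1700016P03Rik (chr11:74986062-74991135, mm9) rose with Fos with a slope of 0.87 ± 0.12 (SE) and an adjusted p of 0.0022 by edgeR. It was at 6.58 CPM in control 205, 1.94 CPM in mutator 249, and between 2.88 and 4.47 CPM in the other controls. The annotation places the microRNA genes Mir132 and Mir212 inside it on the same strand. They are known to be induced by CREB in neurons. Their mature 3p sequences from RefSeq are shown because they share a seed (bases 2 to 8, in capitals), although the microRNAs themselves were not measured here.
mmu-miR-132-3p (GRCm38.p6 chr11:75173723-75173744): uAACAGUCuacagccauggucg
mmu-miR-212-3p (GRCm38.p6 chr11:75173443-75173464): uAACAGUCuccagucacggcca

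Robo3, an axon guidance receptor, fell as Fos rose, with a slope of -0.37 ± 0.06 (SE) and an adjusted p of 0.0169 by edgeR. Neither gene passed without control 205 or without mutator 249, although the slopes were 0.84 and 0.86 for 1700016P03Rik and -0.38 and -0.37 for Robo3. The next 8 genes by p (Galnt9, Mical2, Rnd3, Lrfn2, Gpr83, Rtn4rl1, Adcy7 and Adra1d) did not pass.

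Other genes of the pathway, not members, were put through the same test. Of 34 kinases, receptors and factors upstream of these genes, none passed for a higher level in the mutators and 1 for a lower level, Camkk2, a kinase that activates the calmodulin kinases Camk1 and Camk4, with a log2 fold change of -0.30 ± 0.05 (SE). Its level was 133.2 to 152 CPM in the controls and 106 to 132.5 CPM in the mutators, which did not overlap. The adjusted p by edgeR was 0.00746, and 0.0588 without control 237. Of 23 further immediate early genes tested and 19 later activity-induced genes tested, 0 passed in either direction by edgeR. Among all genes 1.24% passed, which in lists of this size comes to few genes or none. The numbers that passed are therefore not read as a result about these lists. At an unadjusted p under 0.05 the 3 lists held 11 of 34, 4 of 23 and 7 of 19 genes, beside 2834 of all 17983 genes. DESeq2 called 0 upstream genes higher and 2 lower, and 1 higher and 1 lower in each of the other lists. The share of all genes that DESeq2 called is not given here, so nothing is read from these counts. In the fit on Fos, 0 genes of the 3 lists passed by edgeR or DESeq2. Over all genes, 8 of 17982 passed by edgeR and 40 of 28102 by DESeq2. At such shares lists of this size would mostly hold none, so nothing is read from the 0. At an unadjusted p under 0.05 the fit on Fos held 5, 6 and 3 genes of the lists, beside 1199 of all 17982 genes. The median spread between mice was 6.36% for the upstream genes, 13.7% for the further immediate early genes and 7.16% for the later genes, beside the 17.6% of the members.

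Homer1 offers a readout that the total of the gene does not hold. Synaptic activity switches the gene to a short form, Homer1a, which lacks the coiled coil and loosens the postsynaptic scaffold. The exon files, which cover the 3 WT/WT controls and the 7 mutators, divide the gene into 29 bins, of which bin 15 (chr13:94126035-94130417, mm9) belongs to the short transcript alone. Its share of the Homer1 bin counts was 12.9%, 9.31% and 8.86% in controls 205, 239 and 246, and in the mutators it ranged from 5.56% in mouse 207 to 13.4% in mouse 249, with 95% Wilson intervals of 5.03 to 6.14% and 12.5 to 14.4%. The groups overlapped, and the spread between mice was wider than these intervals, which cover counting error only.

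The mean share was 10.4% ± 2.22 (SD, n = 3) in the controls and 9.99% ± 2.51 (SD, n = 7) in the mutators. The difference of -0.377 percentage points gave p = 0.85 in a 2-sided exact permutation test, for which the smallest possible p is 0.00833, and its sign turned without control 205 or without mutator 207. The mouse with the least Fos, mutator 249, had the highest short-form share and control 205, with the most Fos, the next highest. Bins 16 to 18, which belong to other short transcripts, together held 2.99% of the counts in control 205 and 0.665 to 1.58% in the other mice.

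**Figure D5:**
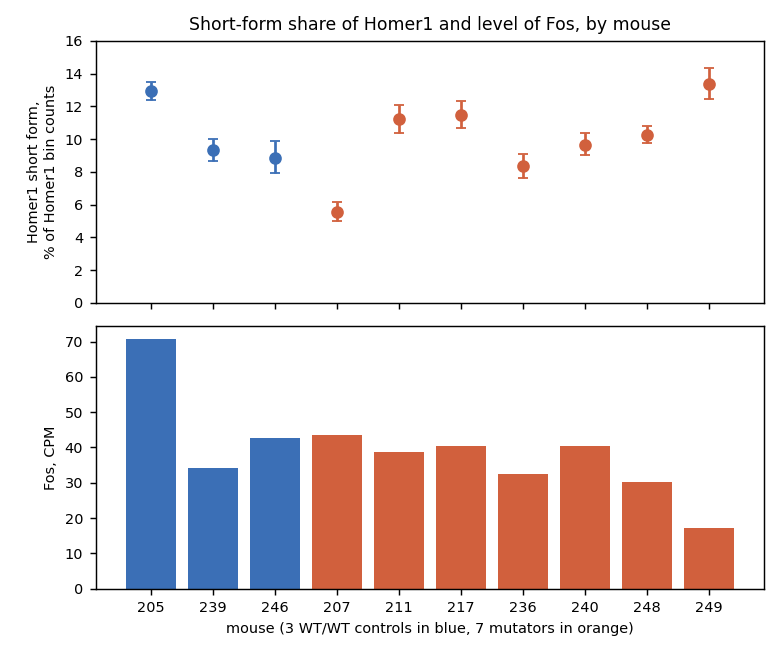
Upper panel, share of Homer1 bin counts in the bin of the short form, in percent, with its 95% Wilson interval. Lower panel, CPM of Fos in the same 10 mice. Mouse 249 has the highest share and the lowest Fos, and mouse 207 the lowest share at 43.5 CPM of Fos.

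Exon usage of the members did not pass the test in any bin. Of 255 member bins, 0 were called by limma at an adjusted p under 0.05, where 0.0121% of all 206930 bins were, and 0 by edgeR's diffSpliceDGE, while 7 member bins had an unadjusted p under 0.05 by limma, beside 5496 of all bins, a like share. Bdnf is read from several promoters through alternative 5′ exons that join a common coding exon (chr2:109563539-109567163, mm9). That exon held 87.0% ± 2.06 (SD, n = 3) of the Bdnf bin counts in the controls and 86.7% ± 1.57 (SD, n = 7) in the mutators. Counts on the 5′ bins were at most 65 in any mouse, so a change in promoter use would have to be large to be seen at this depth.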

How the data were processed

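Poly(A)+ RNA was extracted from frozen cerebral tissue of 11 mice and sequenced with a library kit that does not mark strand, so reads of a gene and of an overlapping antisense gene cannot be told apart. The submitters' processing notes name CASAVA 1.7.1, TopHat2 2.0.6, Bowtie2 2.0.2.0, HTSeq 0.5.3p9 and DESeq 1.14.0, with the genome build mm9. The authors deposited raw read counts per gene for all 11 mice and raw counts per exon bin for 10 of them, and both were used as deposited. A deposited table of read totals served as a check of depth. The deposited tables of the authors' own comparisons hold fold changes and p-values and were not used.

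The 38 members and all lists were chosen with earlier results of these data known. Gene counts were fitted with edgeR 4.0.16 (R 4.3.3; TMM, filterByExpr, robust quasi-likelihood F test, Benjamini-Hochberg over 17983 genes) for 7 mutator against 4 control mice, and each gene was also fitted on the log2 CPM of Fos (prior count of 2) with the group as a term. CPM are counts scaled to the TMM library sizes. The spread between mice came from edgeR dispersions without shrinkage. Exon bins were tested with limma 3.58.1 (voom, diffSplice) in 3 WT/WT and 7 mutator mice, and the Homer1 share with an exact permutation test (scipy 1.17.1). Bins were placed by the mm9 annotation, and reads in no bin made up 20.6 to 23.4% of a library. Promoter windows are in GRCm38.p6, and no coordinate was converted between builds. The fits were tested on simulated counts. Alternatives included DESeq2 1.42.0, other normalizations, no filter, WT/WT controls only, total count as a covariate, and each mouse left out.

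Full values were given for Fos, Fosb, Junb, Egr1, Egr2, Egr4, Arc, Npas4, Nr4a1, Dusp1, Btg2, Cyr61, Ptgs2, Nptx2, Bdnf, Homer1 and the 5 members with the largest and the 5 with the smallest absolute log2 fold change. Egr3, Ier5, Jun, Nr4a3, Scg2 and Vgf were added after their values were seen. For the fit on Fos, all members past the threshold and the 10 other genes with the lowest p were named, and for promoters the members with the steepest slope on Fos that hold a CRE or a CArG box, outside chromosome 18. The mice are separate animals, so p-values measure the spread between animals.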

Additional observations from a re-analysis of the deposited data

Results flagged for a closer look

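In 9 of 77 groups of values examined (38 members in the controls and in the mutators, and the Homer1 share in the mutators), the highest or the lowest mouse lay far from the others by Dixon's ratio, the gap to the nearest mouse divided by the range of the group. Chance alone flags about 5% of such groups, and members that move together are not independent. Control 205 was the high mouse for Sik1 (ratio 0.889, 28.9 CPM against 17.4 in the nearest control), Egr4 (0.881, 33.6 against 23.0 CPM), Nr4a3 (0.879, 51.9 against 26.3 CPM) and Egr2 (0.864, 15.04 against 6.14 CPM). Mutator 249 was the low mouse for Egr1 (0.758, 133.6 against 188 CPM), Arc (0.696, 90.1 against 146 CPM) and Btg2 (0.617, 12.7 against 25.9 CPM). Mutator 207 was the high mouse for Cyr61 (0.59, 14.9 against 11.3 CPM) and Gadd45b (0.576, 13.7 against 10.8 CPM). Control 205 also had the deepest library, and the part of depth in its values was not tested beyond the fit with the total count as a covariate.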

How the results depend on the processing

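The number of members called in the contrast was 5, beside 223 of all 17983 genes. It was 3 with no filter on low counts, 7 with DESeq2 and 1 to 5 when a mouse was left out. These counts come from the contrast with which the list was chosen, and nothing is read from them. The number that followed Fos was 6, beside 8 of all 17982 genes called in either direction. It was 3 in the mutators only, beside 4 of 16513 genes, and 12 with DESeq2, beside 40 of 28102. When a mouse was left out it was 4 to 6, beside 4 to 9 of all genes. With mice 205 and 249 both left out, which was chosen after seeing the data, it was 0, and so was the number over all genes. The median log2 fold change ran from -0.20 to -0.08 and the median spread from 13.2 to 18.6% when a mouse was left out, both lowest in size without control 205. Member bins called stayed at 0 in each of these settings, while the calls over all bins, 25, ran from 2 without control 239 to 280 without control 205 when a mouse was left out. The Homer1 difference ran from -1.13 to 0.899 percentage points when a mouse was left out, turning to 0.899 without control 205 and 0.361 without mutator 207, and no p reached the threshold. The cause of these shifts was not tested. No paired analysis was possible because the labels give the mice no replicate numbers that are shared between the groups. The paper describes the controls as littermates and the libraries as sequenced in pools. The labels used here name neither litter nor pool, and the part of either in the values was not tested.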
